A study of Mus musculus with 16 samples.

Results

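The expression of 9 genes was followed through both RNA-sequencing experiments on mouse DN3 thymocytes. They are *Tiparp*, *Fam83d*, *Yrdc*, *Taf7*, *Mafk*, *Siah2*, *Odc1*, *Dbr1* and *Clec11a*. They were selected from 22114 protein-coding genes, chosen by the log2 fold changes of 2 genotype comparisons: their counts differed between *Lmo2* transgenic cells with and without p21 but not between p21-deficient and wild-type cells. Their genotype values are therefore given as a description with no test. The GFP-sorted libraries were not used by that rule, and there the genes were tested. The genes were, however, chosen with earlier results of these data known.

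DN3 cells are immature, CD4- and CD8-negative thymocytes at the stage where the T-cell receptor beta chain is rearranged. In *CD2-Lmo2* mice the transcription cofactor Lmo2 is driven by the CD2 promoter, which is active in T-lineage cells, and DN3 cells become self-renewing and pre-leukemic. p21, encoded by *Cdkn1a*, is an inhibitor of cyclin-dependent kinases and a target of p53. Histone H2B fused to GFP is diluted at each division once its induction stops, so cells that keep the label have divided little.

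The genotype libraries came from total DN3 cells of 6-week-old mice of 4 genotypes, namely wild-type (WT, 3 libraries), p21-/- (P21KO, 2 libraries), *CD2-Lmo2* transgenic (LMO2Tg, 2 libraries) and *CD2-Lmo2* transgenic p21-/- (LMO2TgP21KO, 2 libraries). The GFP libraries came from *TetOP-H2B-GFP* KI/+;*CD2-Lmo2* mice given doxycycline for 6 weeks and chased for 2 weeks, with 3 libraries of cells that kept the label (GFP_HI) and 3 of cells that had diluted it (GFP_LO). All GFP mice carried the transgene, and no p21 mutation is named for them. The methods and a figure legend differ on their age (6 weeks or 2 months). Each library was a pool of 3 to 5 mice, so p-values measure the spread between pools. The CD2 promoter is not limited to DN3 cells. The strain of every group is C57BL/6 in the labels and C57BL/6J in the methods. The LMO2Tg columns are named here libraries a and b because they could not be tied to single samples.

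Depth was 26861394 to 31106213 counts per GFP library and 13864936 to 16837667 per genotype library. Levels are in CPM, read counts divided by the TMM-scaled library size, and since the tables were normalised separately, levels are compared only within a table. *Cdkn1a* was at 36.5, 37.5 and 49.0 CPM in WT and at 14.3 and 17.7 CPM in P21KO libraries, so reads remained on the targeted gene. It was at 32.8 and 26.3 CPM in LMO2Tg and at 4.35 and 3.50 CPM in LMO2TgP21KO libraries. *Lmo2* had at most 5 counts in each WT and P21KO library and at least 41.4 CPM in each transgenic library of the same table. DN3 markers were present throughout, and the 12 of the list summed to 9262 to 9659 CPM in GFP_HI and 7658 to 8157 CPM in GFP_LO, where *Il2ra* (2657 against 1659 CPM) was the 1 called higher. In the genotype table the same sum was 8628 to 9163 CPM in WT, 8503 to 9105 CPM in P21KO, 6178 to 7153 CPM in LMO2Tg and 6351 to 6627 CPM in LMO2TgP21KO. GFP_HI replicate 3 stood apart, at -52.25 on the second principal component (27.04% of the variance) against 32.4 and 34.9 in the other GFP_HI libraries. It had 285 CPM of *Lmo2*, against 53.8 and 29.5 CPM in the other GFP_HI libraries, and 6.56 CPM of *Cdkn1a*, against 35.8 and 29.9 CPM. Tests are therefore given over all 6 GFP libraries and over the 5 without it. B-lineage markers were higher in GFP_HI, where 4 of the 8 tested were called, none was called lower, and the 10 genes summed to 29.2 to 52.7 CPM against 25.6 to 29.1 CPM in GFP_LO, with *Ms4a1* near 0 in GFP_LO (mean 0.0107 CPM). Of the double-positive (6 tested), gamma-delta and NK (3) and stromal (3) markers, 1 each was called higher in GFP_HI. The 5 tested genes of chromosome Y had a median log2 fold change of 2.66 between GFP_HI and GFP_LO. The part of these genes and markers in the results below was not tested.

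Over the 6 GFP libraries, 3 of the 9 genes were called at an adjusted p under 0.05, against 14.9% of the 11581 genes tested. *Tiparp* and *Yrdc* were higher (5.37% of all genes tested) and *Fam83d* was lower (9.49%) in label-retaining cells. These shares are also the background for the list counts over 6 libraries below. Over the 5 libraries, 7 of the 9 were called, 5 higher and 2 lower, against 41.3% of 11745 genes (19.5% higher and 21.7% lower). *Siah2*, *Taf7* and *Odc1* then joined the genes called higher and *Clec11a* those called lower. In such bulk samples, fewer cells of a type and less RNA per cell cannot be told apart. *Mafk* and *Dbr1* passed in neither fit. At the study's threshold of an adjusted p under 0.01 and over 2-fold, *Tiparp* alone passed, in both fits, against 2.25% and 8.8% of genes. Of the calls over 6 libraries, that of *Tiparp* alone held when any single library was left out. The calls of *Yrdc* and *Fam83d* were lost without any one of the libraries other than GFP_HI replicate 3, with adjusted p up to 0.125 and 0.172 (quasi-likelihood test of edgeR, Benjamini-Hochberg adjusted over all genes tested, as for every adjusted p below). The median log2 fold change of the 9 was 0.25 over 6 libraries, against 0.02 over all genes tested.

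**Figure D1:**
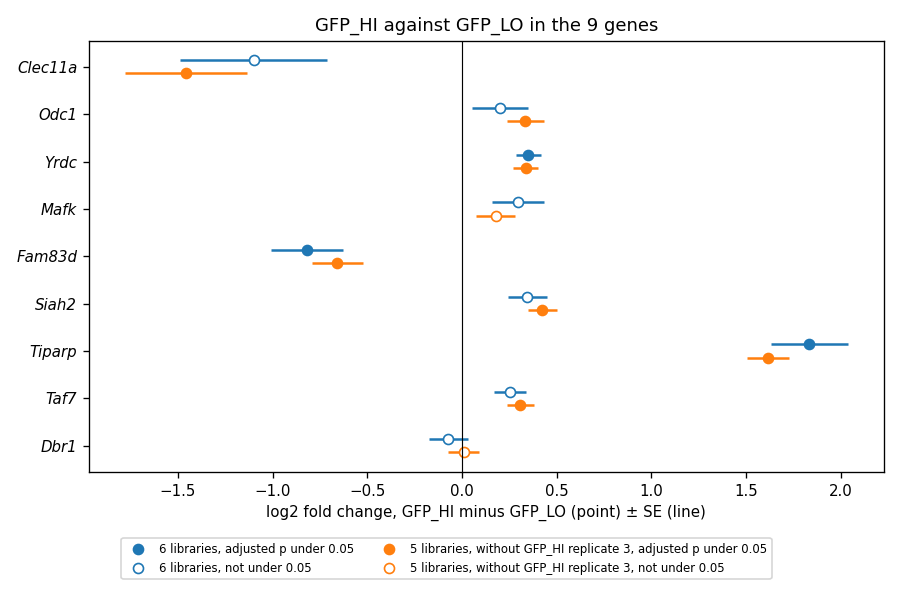
The log2 fold change of each gene (x axis, GFP_HI minus GFP_LO) is drawn with its standard error as a line, over 6 libraries and over the 5 without GFP_HI replicate 3. Filled points passed an adjusted p of 0.05; *Tiparp* lies farthest to the right at 1.83 and 1.62, and *Clec11a* and *Fam83d* lie left of 0.

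The windows before the start of *Tiparp* and of *Fam83d* are shown because these genes were called in opposite directions between the GFP populations while both were lower in LMO2TgP21KO than in LMO2Tg cells. They are RefSeq sequences of GRCm38.p6, plus strand, from 250 bases before the RefSeq start up to the base before the annotated gene, *Tiparp* at chr3:65528197-65528409 and *Fam83d* at chr2:158767849-158768092. Capitals mark matches on either strand to 6 motifs searched, the xenobiotic response element core GCGTG, the CCAAT box CCAAT, the GC box GGGCGG, the AP-1 element TGANTCA, the E-box CACGTG and the CRE core TGACGT.
Tiparp: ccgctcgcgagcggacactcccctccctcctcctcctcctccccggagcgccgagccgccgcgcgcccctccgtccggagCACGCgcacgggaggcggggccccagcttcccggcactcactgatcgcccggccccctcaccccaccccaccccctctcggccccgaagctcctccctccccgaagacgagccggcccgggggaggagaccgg
Fam83d: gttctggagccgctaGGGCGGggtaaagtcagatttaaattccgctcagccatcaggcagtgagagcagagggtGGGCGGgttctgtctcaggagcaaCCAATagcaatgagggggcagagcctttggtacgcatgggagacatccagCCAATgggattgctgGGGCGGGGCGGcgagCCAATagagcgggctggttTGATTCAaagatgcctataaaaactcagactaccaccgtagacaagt

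The *Tiparp* window held a single match, to the xenobiotic response element core on the minus strand, 170 bases before the RefSeq start. That motif was in 28.2% of all 32851 windows of 250 bases. *Fam83d* held 3 CCAAT boxes, at 152, 102 and 72 bases before its start, a motif found in 33.8% of windows. It also held 4 GC boxes, of which those at 87 and 82 bases overlap, and an AP-1 element at 53 bases, with the GC box in 32.7% and the AP-1 element in 6.75% of windows. RefSeq windows were matched for 6 of the 9 genes. Their G and C content was 55.6% to 80.0%, against a median of 52.4% over all windows, and its part in the motif counts was not tested. Among these 6, the GC box was in 5, the xenobiotic response element core in 3, the CCAAT box in 2, and the E-box (6.02% of windows) and the AP-1 element in 1 each. No CRE core, present in 6.47% of windows, was found in them. *Siah2*, *Taf7* and *Dbr1* had no window.

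*Tiparp* (ENSMUSG00000034640, GRCm38 chromosome 3 from 65528410 to 65555518, plus strand) encodes a mono-ADP-ribosyltransferase that is induced by the aryl hydrocarbon receptor (AHR) and represses it. It was at 16.4, 16.7 and 24.9 CPM in GFP_HI replicates 1, 2 and 3 and at 5.44, 4.99 and 5.83 CPM in the GFP_LO replicates. The groups lay far apart, and the highest value was in the GFP_HI library with the least *Cdkn1a*. This was a log2 fold change of 1.83 (standard error 0.20, adjusted p = 0.00493) over 6 libraries and of 1.62 (standard error 0.11, adjusted p = 1.46e-04) over 5. By genotype, *Tiparp* was at 66.1 and 52.1 CPM in LMO2Tg and at 9.35 and 7.85 CPM in LMO2TgP21KO libraries, a fold of 6.89. WT libraries held 21.02, 23.0 and 14.4 CPM and P21KO libraries 18.0 and 48.4 CPM. Both LMO2TgP21KO values were thus below every WT value as well, while P21KO replicate 2 came close to the LMO2Tg level. A transcribed pseudogene, *4931440P22Rik*, overlaps *Tiparp* on the other strand.

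Of 18 AHR-response and ADP-ribosyltransferase genes, 14 were tested in the GFP libraries, 2 were called higher (*Tiparp* among them) and 1 lower. The median of the 14 was 0.23. *Parp4*, another ADP-ribosyltransferase, was higher in GFP_HI at 71.3 against 50.2 CPM (log2 fold change 0.50, adjusted p = 0.0261). *Cyp1b1*, a cytochrome P450 induced by AHR, moved the other way, from 3.49 CPM in GFP_LO to 0.454 CPM in GFP_HI (log2 fold change -2.93, adjusted p = 0.0121).

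*Fam83d* (ENSMUSG00000027654, chromosome 2 from 158768093 to 158786637, plus strand) encodes a mitotic spindle protein that brings casein kinase 1 alpha to the spindle. It was at 9.04, 9.79 and 6.59 CPM in GFP_HI and at 12.8, 16.6 and 15.4 CPM in GFP_LO replicates 1, 2 and 3. All GFP_HI values were below all GFP_LO values (log2 fold change -0.82, standard error 0.19, adjusted p = 0.0398; without GFP_HI replicate 3, -0.66, adjusted p = 0.00906). The median over the 923 tested genes of chromosome 2 was -0.18 in this comparison, and the part of that shift in the *Fam83d* value was not tested. In the genotype libraries *Fam83d* was at 41.9 and 33.0 CPM in LMO2Tg, 6.14 and 7.55 CPM in LMO2TgP21KO, 12.3, 11.4 and 9.98 CPM in WT, and 10.6 and 27.2 CPM in P21KO. LMO2TgP21KO cells thus lay below WT, LMO2Tg cells above it, and P21KO replicate 1 inside the WT range while P21KO replicate 2 was well above it.

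Among 15 FAM83 family and spindle genes, 11 were tested, with 1 called higher and 1 lower (*Fam83d* itself). The median log2 fold change of the 11 was -0.31, against 0.02 over all genes tested. The spindle genes *Kif22* (-0.59), *Tpx2* (-0.44), *Aurka* (-0.31) and *Plk1* (-0.22) were also negative but were not called. The one that was higher was *Csnk1a1*, which encodes casein kinase 1 alpha, at 562 against 465 CPM (log2 fold change 0.28, adjusted p = 0.0481).

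*Yrdc* (ENSMUSG00000028889, chromosome 4 from 124850679 to 124855242, plus strand) encodes the enzyme of the first step of t6A formation, a modification of tRNAs next to the anticodon. GFP_HI libraries held 47.1, 46.1 and 48.5 CPM and GFP_LO libraries 37.0, 35.3 and 38.8 CPM. The spread within each group was small, and *Yrdc* was higher in GFP_HI by a log2 fold change of 0.35 (standard error 0.07, adjusted p = 0.0229) over 6 libraries and 0.34 (adjusted p = 0.00761) over 5. By genotype it was at 73.8 and 71.25 CPM in LMO2Tg and 30.05 and 29.6 CPM in LMO2TgP21KO, against 35.1, 35.4 and 35.0 CPM in WT and 32.8 and 44.4 CPM in P21KO. LMO2Tg cells were 2.06-fold above WT, and LMO2TgP21KO cells were slightly below it. *Yrdc* overlaps *1110065P20Rik* and *Maneal* on the other strand. Of the 8 tested genes of a list on t6A and related tRNA modifications, *Cdk5rap1* and *Cdkal1* among them, *Yrdc* alone was called over 6 libraries. The list median was 0.0046.

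*Taf7* (ENSMUSG00000051316, chromosome 18 from 37640491 to 37644204, minus strand) encodes a TFIID subunit that restrains the acetyltransferase activity of Taf1. It was at 69.6 and 88.4 CPM in LMO2Tg and at 26.2 and 26.1 CPM in LMO2TgP21KO libraries, a fold of 3.02. WT libraries held 28.8, 31.5 and 23.0 CPM and P21KO libraries 25.6 and 36.65 CPM. *Taf7* was the only one of the 9 genes whose LMO2TgP21KO values lay inside the WT range. In the GFP libraries it was at 29.6, 30.0 and 26.7 CPM in GFP_HI and 24.7, 23.2 and 24.5 CPM in GFP_LO. The groups did not overlap, but the gene passed over 5 libraries (log2 fold change 0.31, adjusted p = 0.0128) and not over 6 (0.25, standard error 0.08, adjusted p = 0.0950). The gene models *Gm42416*, *Gm37013* and *Gm37388* overlap it on the other strand. Of 17 TFIID genes in the table, 16 were tested, none was called higher in GFP_HI over 6 libraries and 2 were called lower. *Taf2* was at 118 against 179 CPM (log2 fold change -0.59, adjusted p = 0.00795) and lies on chromosome 15, whose 464 tested genes had a median of -0.43. *Taf3*, on chromosome 2, was at 42.1 against 51.7 CPM (log2 fold change -0.30, adjusted p = 0.0483). The paper reports that trisomy of both chromosomes was frequent among GFP_LO cells, and its part in these values was not tested.

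*Mafk* (ENSMUSG00000018143, chromosome 5 from 139791513 to 139802653, plus strand) encodes a small Maf protein that lacks a transactivation domain and pairs with CNC and Bach factors. Its GFP_HI values of 103, 98.2 and 128 CPM overlapped the GFP_LO values of 101, 88.55 and 78.3 CPM, and the difference passed in neither fit (log2 fold change 0.30, standard error 0.14, adjusted p = 0.188, and 0.18, adjusted p = 0.211). LMO2Tg libraries held 180 and 164 CPM and LMO2TgP21KO libraries 85.6 and 83.9 CPM, with WT at 94.4, 97.4 and 91.9 CPM and P21KO at 90.3 and 106 CPM. The 2.03-fold gap between LMO2Tg and LMO2TgP21KO was thus mainly a gap between LMO2Tg and every other genotype. *Tmem184a* overlaps *Mafk* on the other strand. Of 17 small Maf, CNC and Bach genes and targets, 15 were tested, 1 was called higher and 2 lower. *Bach1*, a repressor that binds DNA with small Maf proteins, was lower in GFP_HI (115 against 136 CPM, log2 fold change -0.25, adjusted p = 0.0356). *Slc7a11*, the cystine transporter, was at 1.22 against 4.87 CPM (log2 fold change -2.004, adjusted p = 0.0372). *Nfe2l1*, a CNC activator, was higher at 120 against 90.4 CPM (log2 fold change 0.41, adjusted p = 0.0485).

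*Siah2* (ENSMUSG00000036432, chromosome 3 from 58674938 to 58692400, minus strand) encodes a ubiquitin ligase that targets the prolyl hydroxylases of the hypoxia pathway. It was at 72.3 and 70.3 CPM in LMO2Tg and 14.4 and 14.6 CPM in LMO2TgP21KO libraries, a fold of 4.92, with 24.2, 26.8 and 17.5 CPM in WT and 17.5 and 34.2 CPM in P21KO. LMO2Tg libraries were above all others and LMO2TgP21KO libraries below all others. Between the GFP populations the gap was narrower, 23.2, 22.8 and 19.6 CPM in GFP_HI against 17.9, 16.6 and 17.1 CPM in GFP_LO. It passed over 5 libraries (log2 fold change 0.42, adjusted p = 0.00544) and missed the threshold over 6 (0.35, standard error 0.10, adjusted p = 0.0736). Of 13 SIAH and hypoxia genes, 11 were tested, 1 was called higher and none lower. That gene was *Egln1*, a prolyl hydroxylase, at 138 against 110 CPM (log2 fold change 0.33, adjusted p = 0.0199).

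*Odc1* (ENSMUSG00000011179, chromosome 12 from 17544794 to 17551505, plus strand, with the snoRNA gene *Gm22748* inside it) encodes ornithine decarboxylase, the rate-limiting enzyme of polyamine synthesis. It differed from the other genes in that LMO2Tg was close to WT, with 228 and 220 CPM against 168, 179 and 200 CPM, while LMO2TgP21KO was far below at 97.5 and 105 CPM. P21KO libraries held 172 and 209 CPM. Relative to WT, the log2 fold change was 0.30 in LMO2Tg and -0.85 in LMO2TgP21KO. In GFP_HI libraries *Odc1* was at 50.6, 58.2 and 40.5 CPM, against 40.5, 41.4 and 48.0 CPM in GFP_LO. GFP_HI replicate 3 was at the low end of GFP_LO. Over 6 libraries the difference was 0.20 on the log2 scale (standard error 0.15, adjusted p = 0.381), and it was 0.33 (adjusted p = 0.0337) without that library. Of 20 polyamine genes, 15 were tested and 1 was called, *Eif5a2*, which encodes an isoform of the hypusinated translation factor eIF5A and was higher at 5.92 against 2.12 CPM (log2 fold change 1.48, adjusted p = 0.0181).

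*Dbr1* (ENSMUSG00000032469, chromosome 9 from 99575799 to 99584501, plus strand) encodes the enzyme that debranches intron lariats. It had the smallest genotype gap of the 9 genes, with 63.1 and 65.3 CPM in LMO2Tg, 37.0 and 35.9 CPM in LMO2TgP21KO, 44.98, 42.6 and 42.8 CPM in WT, and 42.6 and 51.3 CPM in P21KO. The GFP groups overlapped, with 45.3, 43.6 and 37.5 CPM in GFP_HI and 40.4, 45.1 and 47.6 CPM in GFP_LO. Neither fit called it (log2 fold change -0.07, standard error 0.10, adjusted p = 0.652, and 0.01, standard error 0.08, adjusted p = 0.938). None of the 12 genes of lariat turnover was called over 6 libraries.

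*Clec11a* (ENSMUSG00000004473, chromosome 7 from 44302687 to 44306902, minus strand) encodes a secreted C-type lectin with growth factor activity on blood progenitors and bone. It was the only one of the 9 that was higher without p21 in the transgenic background, at 13.2 and 8.82 CPM in LMO2TgP21KO against 1.479 and 1.504 CPM in LMO2Tg, a fold of 7.32. The LMO2Tg values rest on 20 and 22 counts. WT libraries held 5.64, 5.34 and 6.05 CPM and P21KO libraries 6.45 and 5.19 CPM, so that LMO2Tg lay below and LMO2TgP21KO above both non-transgenic genotypes. In the GFP libraries *Clec11a* was at 13.3, 6.25 and 18.1 CPM in GFP_HI and at 21.9, 33.5 and 25.2 CPM in GFP_LO. The groups did not overlap but varied widely, and the gene passed over 5 libraries (log2 fold change -1.46, standard error 0.32, adjusted p = 0.0121) and not over 6 (-1.10, standard error 0.39, adjusted p = 0.110). Of 19 haematopoietic growth factors and receptors, 6 were tested, 1 was called higher and 1 lower. *Kit*, the stem cell factor receptor, was at 178 against 357 CPM (log2 fold change -1.003, adjusted p = 0.0101), and *Csf2ra*, a GM-CSF receptor chain, at 4.62 against 0.864 CPM (log2 fold change 2.42, adjusted p = 0.0298).

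**Figure D2:**
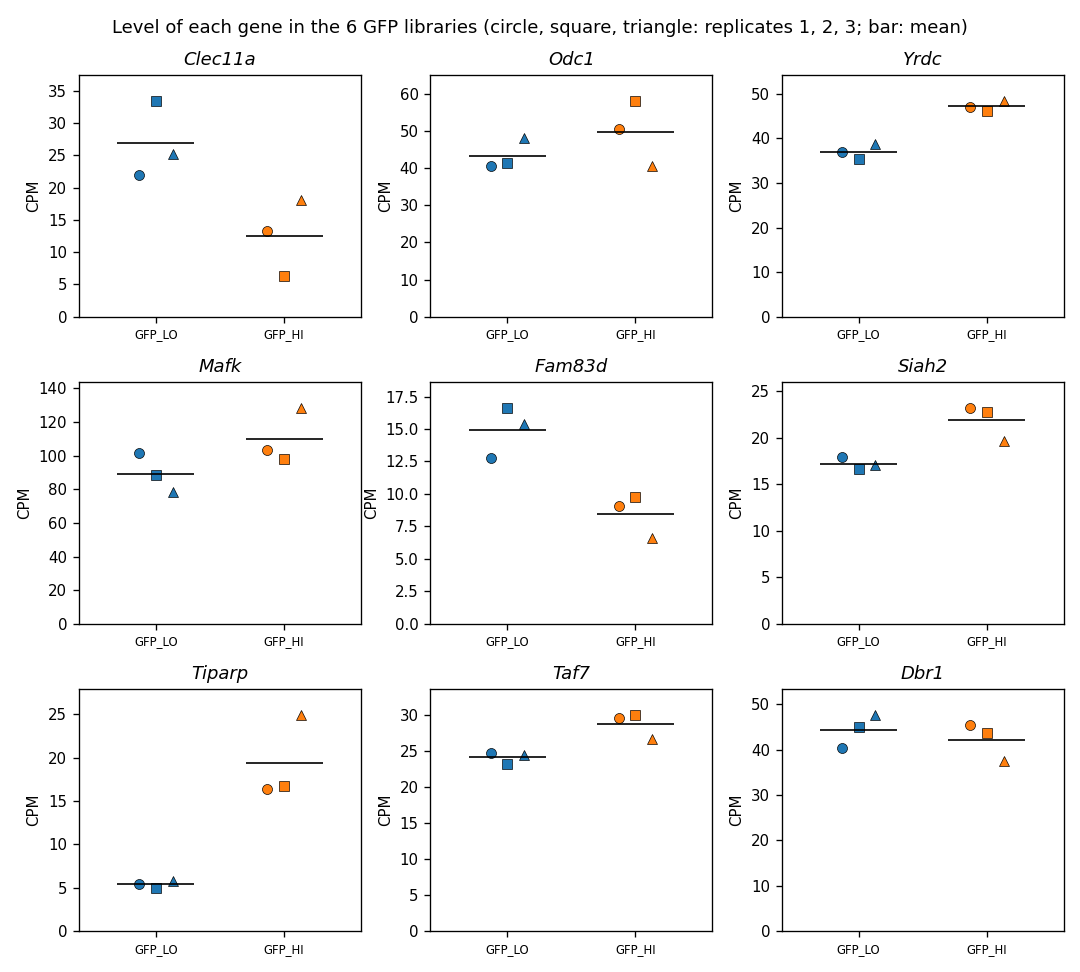
CPM of each gene (y axis, from 0) in the GFP_LO and GFP_HI libraries, with a symbol per replicate and a bar at the mean of 3. GFP_HI lies wholly above GFP_LO for *Yrdc*, *Siah2*, *Tiparp* and *Taf7*, and wholly below it for *Clec11a* and *Fam83d*.

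Among the 9 genes the GFP groups did not overlap in 6 (4 higher and 2 lower in GFP_HI) over 6 libraries, where 41.3% of all genes tested did not overlap (19.6% higher and 21.7% lower). Every gene lower in LMO2TgP21KO than in LMO2Tg except *Fam83d* and *Dbr1* had a positive GFP log2 fold change, and so did 52.1% of all genes tested. For the 395 tested genes with the same genotype pattern (lower in LMO2TgP21KO than in LMO2Tg at an adjusted p under 0.05, P21KO against WT not called), 63.0% had a positive value, with a median of 0.10 and with 38 called higher and 17 lower. For the 381 with the opposite direction, 60.1% had a positive value, with 31 called higher and 26 lower. Over all genes tested, 5.37% were called higher and 9.49% lower. Without GFP_HI replicate 3 the positive shares were 62.2% and 53%, against 51% of all genes. Of the lower direction, 108 of 397 were then called higher and 63 lower. Of the opposite direction, 90 of 383 were called higher and 87 lower. Over all genes, 19.5% were called higher and 21.7% lower in this fit. *Clec11a*, of the pattern higher in LMO2TgP21KO than in LMO2Tg, had a negative GFP log2 fold change.

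Between LMO2TgP21KO and LMO2Tg the groups did not overlap for any of the 9 genes, by the choice of the genes, with 8 lower and 1 higher (25.7% and 29% of all genes). The genotype pattern that chose the genes was common. It was found in 418 genes in the lower direction (3.53% of 11840 tested) and in 392 in the higher (3.31%). P21KO differed from WT in 13 genes in all, 6 higher and 7 lower (0.0507% and 0.0591%). No numerical limit was attached to the choice. *Dbr1*, with a log2 fold change of -0.82, ranked 196 by size among the 418, and *Tiparp*, with -2.78, ranked 46. *Clec11a* ranked 11 among the 392. In P21KO against WT the log2 fold changes were 0.77 for *Tiparp*, 0.75 for *Fam83d* and at most 0.18 for the other 7, and the groups overlapped for all 9, where 9.91% of genes were higher and 9.62% lower without overlap. The larger values came from P21KO replicate 2. Without it they were -0.11 for *Tiparp*, -0.08 for *Fam83d* and -0.38 for *Siah2*, and with it as the sole P21KO library they were 1.31, 1.27 and 0.58. The overlap of these 3 genes thus rested on 2 P21KO libraries that lay far apart. P21KO replicate 2 was also above every WT library for *Odc1*, *Yrdc*, *Mafk*, *Taf7* and *Dbr1*, but not for *Clec11a*. For *Yrdc* (32.8 and 44.4 CPM) and *Mafk* (90.3 and 106 CPM) the P21KO libraries lay on opposite sides of the WT range. The 7 erythroid markers summed to 34.6 CPM in P21KO replicate 2, against 6.27 CPM in P21KO replicate 1 and 2.30 to 16.3 CPM in the other genotype libraries, and their part was not tested.

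Set against WT, in a comparison that shares its libraries with those above, 8 of the 9 genes were higher in LMO2Tg and *Clec11a* was lower, without overlap. The log2 fold changes were 1.74 for *Fam83d*, 1.64 for *Siah2*, 1.60 for *Tiparp*, 1.51 for *Taf7*, 1.04 for *Yrdc*, 0.87 for *Mafk*, 0.56 for *Dbr1*, 0.30 for *Odc1* and -1.92 for *Clec11a*. Without overlap, 29.9% of all genes were higher and 31% lower in this comparison. LMO2TgP21KO values lay below all WT values for *Odc1*, *Yrdc*, *Mafk*, *Fam83d*, *Siah2*, *Tiparp* and *Dbr1*, by log2 fold changes from -0.16 for *Mafk* to -1.18 for *Tiparp*. *Clec11a* lay above them by 0.95.

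**Figure D3:**
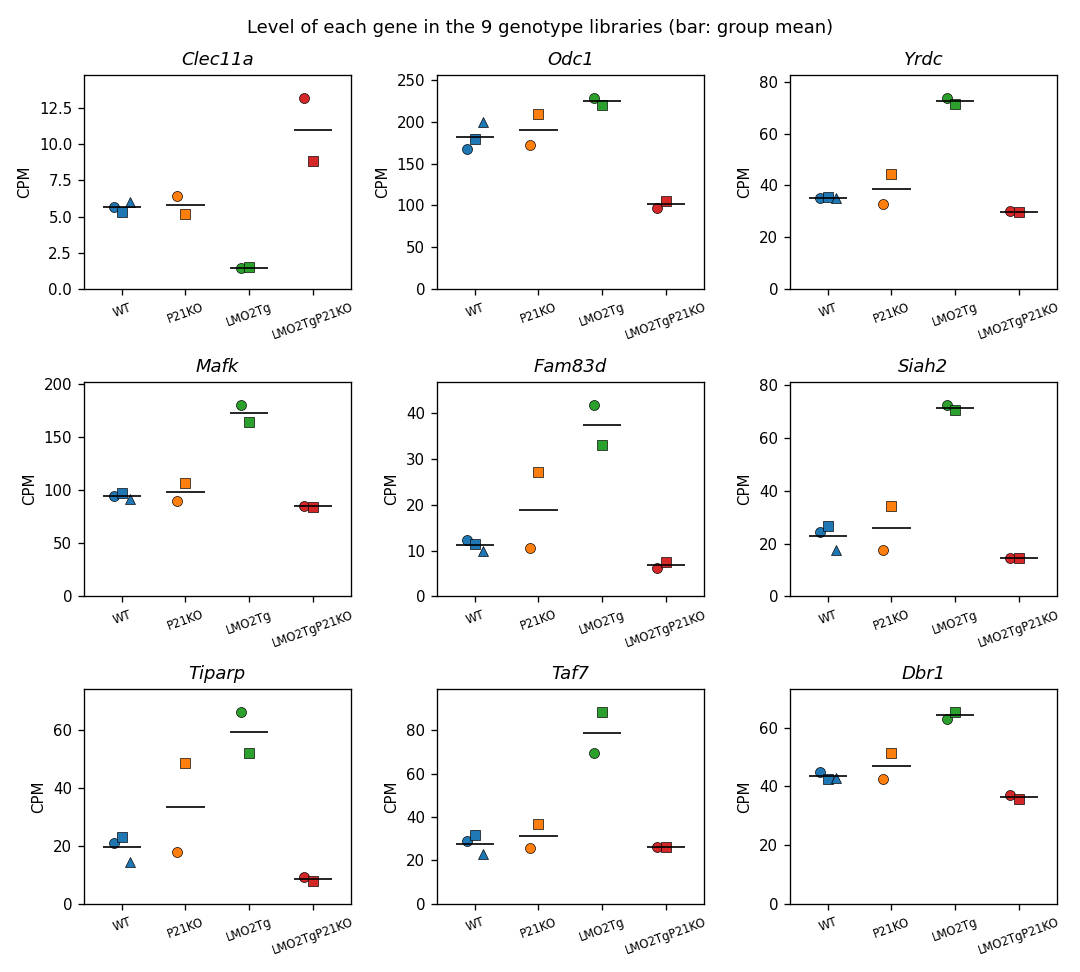
CPM of each gene (y axis, from 0) in the 9 genotype libraries, with a point per library and a bar at the group mean. LMO2Tg is the highest group for all genes except *Clec11a*, for which it is the lowest, and P21KO replicate 2 lies well above P21KO replicate 1 for *Fam83d*, *Siah2* and *Tiparp*.

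Immediate-early and delayed-early genes, which are transcribed within minutes to hours of a stimulus, were high in LMO2Tg libraries, as were the 9 genes other than *Clec11a*. The 29 genes of the list summed to 5109 and 7050 CPM in LMO2Tg and to 1418 and 1630 CPM in LMO2TgP21KO libraries, and 27 of the 29 had a negative log2 fold change between these groups (median -2.16, against 0.02 for all genes). WT libraries summed to 1854, 2853 and 1140 CPM and P21KO replicates 1 and 2 to 1369 and 2616 CPM. The P21KO library in which *Tiparp*, *Fam83d* and *Siah2* were high was therefore also the one with the higher sum. WT replicate 3, the lowest WT library for *Tiparp*, *Siah2*, *Taf7*, *Fam83d* and *Mafk*, had the lowest sum. *Odc1* and *Clec11a* had their highest WT value in that library, *Dbr1* was lowest in WT replicate 2, and *Yrdc* varied little across WT. Between the LMO2Tg libraries, *Tiparp*, *Fam83d* and *Mafk* were higher in library a, which had the lower sum. *Odc1*, *Yrdc* and *Siah2* were also higher there, by small gaps. *Taf7* and *Dbr1* were higher in library b, and *Clec11a* was nearly equal. The part of the early-response genes in the genotype values of the 9 genes was not tested.

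In the GFP libraries the same list summed to 1776, 1717 and 2364 CPM in GFP_HI and 1728, 1552 and 1485 CPM in GFP_LO, and the ranges overlapped. Of its 26 tested genes, 4 were called higher and none lower over 6 libraries (median 0.52), and 10 higher and 4 lower over 5 (median 0.29). Over all genes tested, 5.37% were called higher and 9.49% lower over 6 libraries. Over 5 these shares were 19.5% and 21.7%. *Egr1*, a zinc-finger factor induced by growth and antigen-receptor signals, was at 64.1 CPM in GFP_HI against 17.2 CPM in GFP_LO (log2 fold change 1.90, adjusted p = 0.0170). *Nr4a3*, an orphan nuclear receptor, was at 4.29 against 1.68 CPM (log2 fold change 1.35, adjusted p = 0.0254), and *Btg2*, an antiproliferative gene, at 228 against 158 CPM (log2 fold change 0.53, adjusted p = 0.0105). *Tiparp* was highest in the GFP library with the highest sum, whereas *Siah2* and *Taf7* had their lowest GFP_HI value there.

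**Figure D4:**
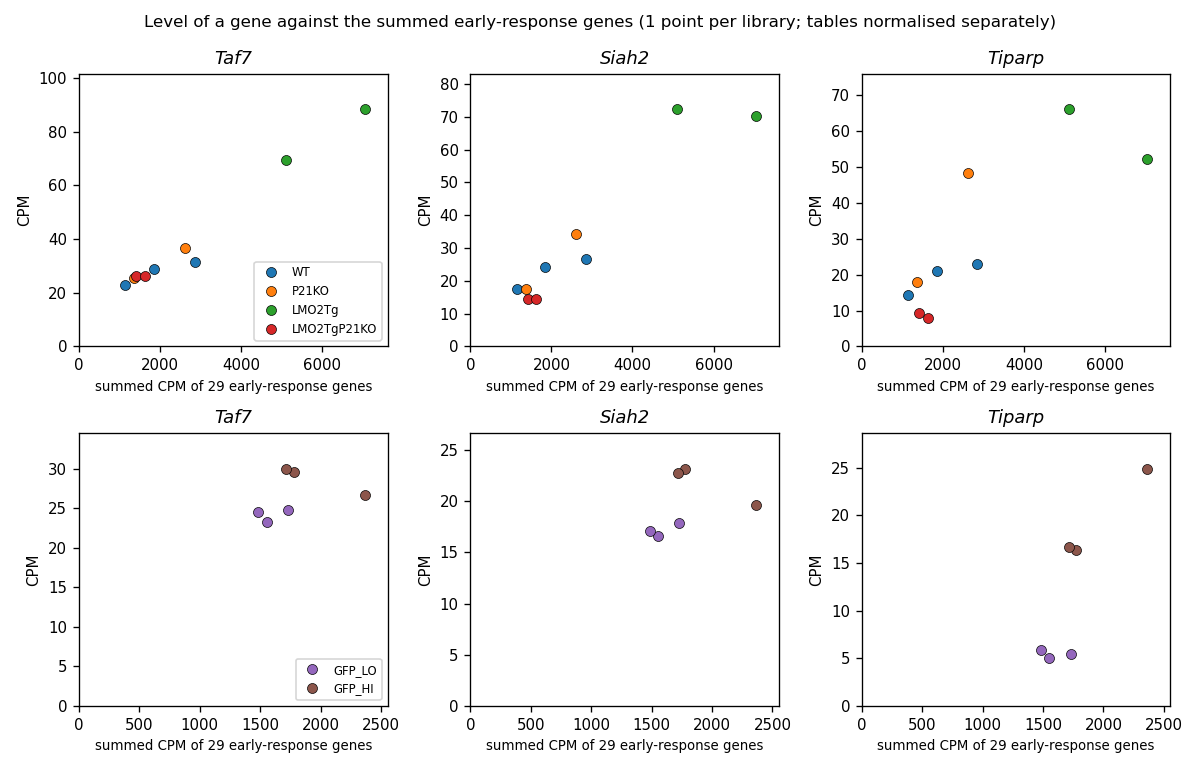
CPM of *Taf7*, *Siah2* and *Tiparp* (y axis) against the summed CPM of 29 early-response genes (x axis), with a point per library, genotype libraries above and GFP libraries below. The LMO2Tg libraries lie at the upper right of each genotype panel, at sums of 5109 and 7050 CPM, and in the GFP panels GFP_HI replicate 3, at a sum of 2364 CPM, is the highest point for *Tiparp* only.

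For 8 of the genes the closest companion is given, sought among 9297 genes by the correlation of log2 CPM, centred within each table, over all 15 libraries. *Siah2* was most like *Hspa5*, the endoplasmic reticulum chaperone (r = 0.98), and *Yrdc* most like *Sfr1* (0.98). *Taf7* followed *Ier5*, an immediate-early gene of the list above (0.97). *Odc1* followed *Dnaja2* (0.96), *Fam83d* followed *Chka* (0.95), *Dbr1* followed *Ythdf1* (0.95), *Tiparp* followed *Eif4g2* (0.94) and *Clec11a* followed *Fbxo3* (0.92). The 15 libraries include the genotype libraries that chose the genes, so part of each correlation follows from that choice. These values are descriptions over libraries that share groups, and depth was alike only within an experiment.

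The 9 genes lie on 8 chromosomes, and *Siah2* and *Tiparp* are both on chromosome 3. Their principal transcripts were short in exon number, with 2 exons in *Siah2* and *Taf7*, 3 in *Mafk*, 4 in *Clec11a* and *Fam83d*, 5 in *Yrdc*, 6 in *Tiparp*, 8 in *Dbr1* and 12 in *Odc1*. Thus 8 of the 9 were below the median of 9 exons, as were 46.6% of all genes tested, and 3 had at most 3 exons, as did 11.8%.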

How the data were processed

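Poly-A RNA of sorted DN3 thymocytes was sequenced. For each experiment the authors deposited a table of raw read counts, 1 row per protein-coding gene. STAR 2.4.2a, featureCounts, limma and mm10 are named in the submitters' processing notes. Whether reads were counted by strand is not given in the sources used here, but the names of the tables point to counting by strand for GFP and without strand for the genotypes, so *Yrdc*, *Mafk*, *Tiparp* and *Taf7*, which overlap genes on the other strand, are uncertain. Groups came from the sample labels. Of 10 genotype samples, 9 libraries were used. No column was matched to P21KO replicate 3, and 1 column, named as a further LMO2TgP21KO library, matched no label and was not used.

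The members and gene lists were chosen with earlier results of these data known. Genes were filtered with filterByExpr (minimum count 10) and scaled by TMM. Tests used edgeR 4.0.16 (quasi-likelihood) in R 4.3.3 with Benjamini-Hochberg adjustment over all genes tested. Log2 fold changes carry standard errors. List genes are named where called, at most 3 per list by size and with at least 1 CPM. Alternatives were DESeq2 1.42.0, limma-voom (limma 3.58.1), RLE size factors, no filter, the replicate number as a block, the study's threshold and each library left out. Positions came from GENCODE M21 (98.2% of identifiers matched), promoter windows from RefSeq. A count of 3, the smallest level resolved, is 0.0966 to 0.112 CPM in GFP and 0.176 to 0.222 CPM in genotype libraries. These limits cover counting error only. The scripts were tested on simulated data. The closest companion of *Mafk* is not reported here.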

Additional observations from a re-analysis of the deposited data

How the results depend on the processing

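Between GFP_HI and GFP_LO, 3 of the 9 genes were called over 6 libraries, and as many with RLE size factors, limma-voom or no filter. DESeq2 called 6 and the study's threshold 1. Leaving out a library in turn gave from 1 to 7. Over all genes the count was 1721, and 2913 with DESeq2, 261 at the study's threshold and from 273 to 4848 with a library left out, the lowest without GFP_LO replicate 2 and the highest without GFP_HI replicate 3. With the replicate number as a block, 1 of the 9 (*Tiparp*) and 496 genes were called. The paper names 3 independent cohorts of mice for both GFP populations. Whether libraries of the same number share a cohort is not given in the labels. Same-numbered libraries deviated together by correlations of 0.07, -0.08 and 0.10. With 3 libraries per group these values cannot decide it, and the main fit took the libraries as unpaired. *Dbr1* changed sign without GFP_HI replicate 3, from a log2 fold change of -0.073 to 0.0092, and ranged from -0.137 to 0.0092 with a library left out. No other gene of the 9 changed sign in the GFP comparison. All genotype values kept their sign in LMO2TgP21KO against LMO2Tg. The causes of these differences were not tested.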
